A study of Mus musculus with 18 samples.

Results

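Cytosolic ribosomal protein genes encode the proteins that, with ribosomal RNA, build the ribosomes of the cytoplasm. They were followed in RNA sequencing libraries of mouse cerebral cortex. Members were the protein-coding rows of the deposited table whose symbol is Rpl or Rps with a number, an optional closing letter (a, l, x or y) and nothing else, together with Rpsa, Rplp0, Rplp1 and Rplp2. The rule used symbols only and no measured value, and it found 81 of the 28852 genes in the table. Each library carries the label Alg13 knockout or wild type and a postnatal day, 1, 7 or 30, with 3 libraries in each of the 6 groups. Alg13 encodes a subunit of the enzyme that extends the sugar precursor of protein N-glycans, and the series asked what its loss does to cortical interneurons. The labels name the knockout without its allele, strain, sex or any Cre line, and do not say whether replicates were separate or pooled animals. P-values therefore measure the spread between these libraries, which may be technical.

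The small ribosomal subunit reads the messenger RNA, and the large subunit joins the amino acids. Proteins of the small subunit carry symbols that begin with Rps, and those of the large subunit symbols that begin with Rpl. The stalk proteins Rplp0, Rplp1 and Rplp2 sit on the large subunit and draw in the elongation factors. The genes are spread over many chromosomes, yet cells make their products in matched amounts. Many of their messenger RNAs begin with a C followed by a run of pyrimidines, the terminal oligopyrimidine (TOP) motif, through which growth signals sent by mTOR adjust their translation. Growing and dividing cells need more new ribosomes than mature cells do, and in the cortex the first postnatal weeks take newborn neurons to mature ones.

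The starts of these transcripts are shown first, because the TOP run is the sequence feature the genes are known for. RefSeq promoters (assembly GRCm38.p6, from 250 bases before to 50 bases after each annotated start) matched 60 of the 81 members with 72 promoters. The deposited values were made on GRCm39, so the coordinates below are those of the promoter table and not of the deposited files. A C followed by 4 pyrimidines stood exactly at the annotated start in 14 of 72 member promoters (19.4%), against 823 of 32851 promoters in the whole table (2.51%). An annotated start can lie some bases from the one used in cortex, and then the motif is missed. The 6 starts below are of members that the results return to, with 10 bases before the start and 20 from it, 5′ to 3′. Capitals mark the pyrimidine run from the annotated start, which was 13 bases long in Rpl15 and 5 in Rps21.
Rpl15 (chr14:18270967-18270996, minus strand): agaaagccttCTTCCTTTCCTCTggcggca
Rps10 (chr17:27635225-27635254, minus strand): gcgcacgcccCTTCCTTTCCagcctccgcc
Rps15a (chr7:118116128-118116157, minus strand): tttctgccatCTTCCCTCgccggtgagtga
Rpl28 (chr7:4792955-4792984, plus strand): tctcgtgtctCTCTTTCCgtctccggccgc
Rplp2 (chr7:141447641-141447670, plus strand): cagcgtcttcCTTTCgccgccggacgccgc
Rps21 (chr2:180257369-180257398, plus strand): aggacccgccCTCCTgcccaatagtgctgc

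Motifs were also counted on either strand over the whole promoter windows. CCGGAA, the core letters of ETS family sites, was found in 34 of 72 member promoters (47.2%) and in 14.9% of all promoters. ATGGCG was found in 21 (29.2%), against 8.93% of all promoters. TATAAA, the letters of the TATA box, was found in 7 (9.72%), against 13.6% of all promoters. Each motif was counted on its own, and a promoter could hold several. The windows below show CCGGAA, in capitals and in either orientation, in 4 members whose change with age stood at the edges of the group; the match shown began 69 bases before the annotated start in Rpsa, 126 in Rps2, 214 in Rps26 and 56 in Rpl41.
Rpsa (chr9:120127685-120127714, plus strand): gccagaggctttTTCCGGagcggaagttct
Rps2 (chr17:24719925-24719954, plus strand): atttatacgtccTTCCGGctggtgtagggc
Rps26 (chr10:128626703-128626732, minus strand): tttaatcttccgCCGGAAggttaaatagtt
Rpl41 (chr10:128549207-128549236, minus strand): ctagtaaggcagCCGGAAgtcgctgtctcg

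The values are FPKM, which divide a fragment count by transcript length and by library size, so levels of different genes can be set side by side. The total FPKM of a library lay between 313920 and 394980, and the depth in reads is unknown. Alg13 itself measured 1.04 to 2.78 FPKM in the 9 knockout libraries and 0.833 to 3.27 FPKM in the 9 wild type libraries. Its groups overlapped on each day, so its RNA did not check the labels. Neuronal markers were high in all libraries, with 8 of 8 detected and a summed level of 972 to 3345 FPKM. Wild type day 1 replicate 3 stood apart. Its salivary gland markers summed to 35823 FPKM and its brown fat markers to 1944 FPKM, against 12.2 to 25.7 FPKM for salivary gland in knockout day 1 and 25.3 and 36.7 FPKM in replicates 2 and 1 of its own group. First-week and whole-month values of wild type rest on it, so values computed without it are given beside many of them. Xist measured 23.8 to 157 FPKM in 4 of the 18 libraries, and in 3 of these the Y-linked gene Ddx3y was also present, at 2.77 to 11.7 FPKM.

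Of the 81 members, 78 passed the filter of at least 1 FPKM in at least 3 of 18 libraries. These were 44 proteins of the large subunit, the 3 stalk proteins and 31 of the small subunit. The 3 below it were copies of other members, namely Rpl32l, Rpl39l and Rpl3l, with mean levels of 0.308, 0.189 and 0.0730 FPKM over the 18 libraries. The members were among the most abundant transcripts of the cortex. The median of their mean levels was 266 FPKM, against 7.22 FPKM over the 13347 genes tested, and 51 of the 200 genes with the highest mean were members. The highest were Rpl41, which encodes a very short basic peptide, with 1020 FPKM, Rplp1 with 917 FPKM and Rpl23a, near the tunnel through which the new chain leaves, with 709 FPKM. At the low end of those tested were Rps20 with 43.3, Rpl6l with 27.2 and Rps27l with 5.57 FPKM. The mean levels of the tested members spanned 183-fold. Processed copies of many of these genes lie elsewhere in the genome, and Rpl6l and Rpl32l are close copies of Rpl6 and Rpl32. Fragments could have been split between such copies, so the level of a single member is uncertain.

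Members fell together from birth to the end of the first month. In knockout libraries they held 10.03, 8.87 and 12.3% of all FPKM on day 1, 5.50, 5.67 and 6.18% on day 7 and 4.46, 3.53 and 3.82% on day 30. In wild type libraries they held 10.4, 9.47 and 11.6% on day 1, 6.46, 6.51 and 7.09% on day 7 and 3.58, 3.59 and 3.84% on day 30. No library of a later day overlapped with one of an earlier day in either genotype. The group means were 10.4 ± 1.75, 5.79 ± 0.352 and 3.94 ± 0.475% in knockout and 10.5 ± 1.08, 6.69 ± 0.352 and 3.67 ± 0.147% in wild type (SD, n = 3). An FPKM total is shared by all genes, and the 13 mitochondrially encoded genes took a growing part of it. That part was 7.35 to 8.98, 12.8 to 14.1 and 20.3 to 24.9% in knockout and 7.48 to 10.4, 11.3 to 12.1 and 22.9 to 26.3% in wild type on days 1, 7 and 30. With those genes left out of the total, the members held 11.3, 6.69 and 5.14% in knockout and 11.5, 7.56 and 4.88% in wild type on the 3 days. The summed level of the 6 immature neuron markers was also lower on each later day in knockout. They summed to 5158 to 5684, 2337 to 2914 and 518 to 578 FPKM in knockout and to 3382 to 5570, 3150 to 4205 and 465 to 516 FPKM in wild type on days 1, 7 and 30. The wild type sums of days 1 and 7 overlapped, and the lowest day 1 sum was that of replicate 3. From day 1 to day 7 in wild type, 5 of the 6 markers had a negative log2 change and 1 a positive one. The part of these markers in the fall of the members was not tested. In bulk tissue, fewer cells of a type and less RNA per cell cannot be told apart.

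**Figure D1:**
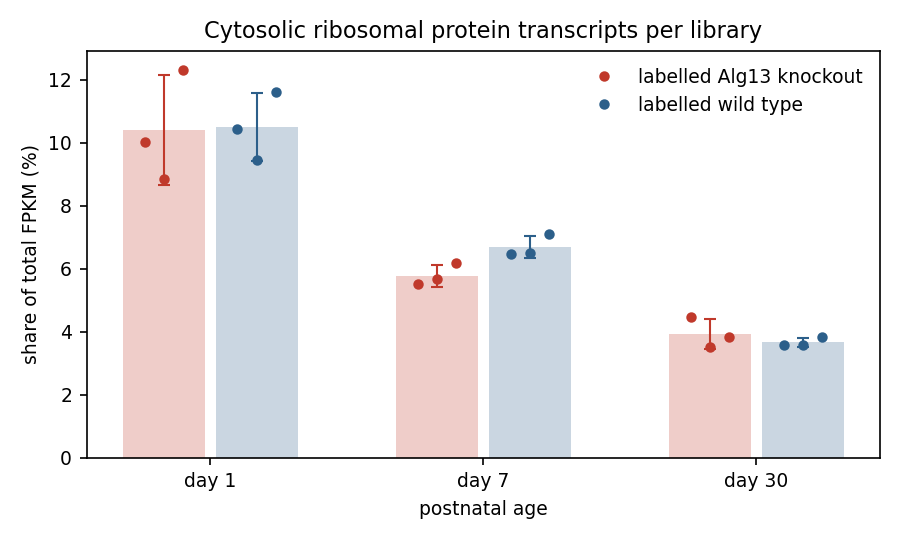
Share of the total FPKM of each library held by the cytosolic ribosomal protein genes (percent, vertical axis) by postnatal day, with libraries labelled knockout left of those labelled wild type. Points are libraries, bars group means and error bars SD (n = 3); day 1 libraries lie at 8.87 to 12.3%, and day 30 libraries at 3.53 to 4.46%.

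Between day 1 and day 7 the fall reached nearly every member. In knockout libraries 74 of the 78 tested were lower on day 7 than on day 1 at an adjusted p under 0.05 (limma on log2(FPKM + 1), adjusted over 13347 genes), where 29.4% of all genes tested were called lower. The median log2 change of the members was -0.99, a fold of 0.504, and that of all genes -0.08. In wild type libraries 67 of 78 were called lower, against 28% of all genes, with a median of -0.78 and a fold of 0.581 (all genes -0.10). No member was called higher in either genotype. The libraries of the later day lay below all those of the earlier day for 75 members in knockout (36% of all genes) and for 74 in wild type (29.5% of all genes). Without wild type day 1 replicate 3, the wild type count was 59 and its median -0.60, where 30.6% of all genes were called lower with a median of -0.04.

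Among the largest falls of the first week in knockout were those of Rplp0 and Rps19. Rplp0 measured 293, 285 and 352 FPKM on day 7, against 736, 636 and 971 FPKM on day 1 (log2 change -1.32 ± 0.17 SE, adjusted p = 1.56e-05). Rps19, mutated in human Diamond-Blackfan anaemia, measured 95.1, 105 and 119.6 FPKM on day 7, against 228, 211 and 379 FPKM on day 1 (log2 change -1.30 ± 0.23, adjusted p = 0.000217). In both genes the highest day 7 library lay below the lowest day 1 library. Rps13, Rps7, Rps15a, Rpl28 and Rpl32 were also among the leading 8, with log2 changes of -1.26 to -1.18. In wild type Rplp0 led with -1.13 ± 0.17 (adjusted p = 6.66e-05), then Rps15a with -1.08 ± 0.12 (adjusted p = 4.33e-06). Without wild type day 1 replicate 3 these changes were -0.93 ± 0.15 for Rplp0 (adjusted p = 9.84e-05) and -1.04 ± 0.13 for Rps15a (adjusted p = 1.03e-05). Rps15a measured 35.3, 36.1 and 42.7 FPKM on day 7, against 86.4, 72.2 and 85.5 FPKM on day 1, with no overlap. Rpl10, Rps10, Rps7 and Rpl7 were also among the leading 8, with log2 changes of -1.02 to -0.98. With wild type day 1 replicate 3 left out, their changes were -0.72, -0.82, -0.87 and -0.82 in that order.

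The members not called in the first week in knockout were also not called in wild type. Rpl41, Rplp1, Rps2 and Rps27l missed the threshold in knockout. These 4 missed it in wild type together with Rpl12, Rpl21, Rpl29, Rpl39, Rps21, Rps29 and Rpsa. With wild type day 1 replicate 3 left out, all of these missed it again. The wild type count called lower was then 59 of 78, against 67 with that library, so further members missed it. Rpl41 measured 984, 1012 and 1133 FPKM on day 7 in knockout, against 1152, 1056 and 1746 FPKM on day 1. In wild type it measured 1103, 1196 and 1284 FPKM on day 7, against 1163, 1073 and 1586 FPKM on day 1, so the days overlapped in both genotypes. Its log2 change was -0.30 ± 0.18 in knockout (adjusted p = 0.183) and -0.07 ± 0.18 in wild type (adjusted p = 0.758). With wild type day 1 replicate 3 left out, the wild type change of Rpl41 was 0.09 ± 0.17 (adjusted p = 0.669). Rpsa, a protein of the small subunit also described as the laminin receptor precursor, measured 372, 370.1 and 425 FPKM on day 7 in knockout, against 546, 500.4 and 774 FPKM on day 1 (log2 change -0.62 ± 0.14, adjusted p = 0.00189). In wild type it measured 444, 442 and 473 FPKM on day 7, against 545, 484 and 580.3 FPKM on day 1 (log2 change -0.24 ± 0.14, adjusted p = 0.172). The days did not overlap in either genotype.

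Between day 7 and day 30 the members fell again. In wild type libraries 69 of 78 were called lower on day 30 than on day 7, where 29.6% of all genes were, with a median log2 change of -0.82 and a fold of 0.568 (all genes -0.08). All 78 had every day 30 library below every day 7 library, as did 42.2% of all genes. The 9 members not called were Rpl13a, Rpl35a, Rpl37, Rpl9, Rps14, Rps15, Rps21, Rps27 and Rps27l, with log2 changes of -0.80 to -0.11. In knockout libraries 36 of 78 were called lower, where 22% of all genes were, with a median of -0.48 and a fold of 0.715 (all genes -0.05). The day 30 libraries lay below all day 7 libraries for 49 members, as for 33.6% of all genes. That knockout count rested on single libraries. It was 50 without knockout day 30 replicate 1, which was the highest of its group for 75 members, and 13 without replicate 2, which was the lowest for 75. It was 21 without replicate 3 of day 30, and 23 and 15 without replicates 2 and 3 of day 7. The share of all genes called lower in each of these fits is not reported here. Whether these smaller counts stand above that share therefore cannot be read from them. The genotype by day interaction (a moderated F test in limma) tested the difference between the genotypes over both intervals together, and not the second interval alone. It called 0 of 78 members (2 of 13347 genes, 0.015%), and the smallest adjusted p of a member was 0.55.

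The same members led the second interval in both genotypes. Rplp0, the base of the stalk, measured 131, 144 and 124 FPKM on day 30 in knockout, against 293, 285 and 352 FPKM on day 7 (log2 change -1.21 ± 0.17, adjusted p = 4.78e-05). In wild type it measured 115, 113 and 122 FPKM on day 30, against 338, 359 and 414 FPKM on day 7 (log2 change -1.65 ± 0.17, adjusted p = 1.06e-06). Neither genotype showed an overlap. Rpsa came next, with 193, 181 and 167 FPKM on day 30 in knockout (log2 change from day 7 -1.10 ± 0.14, adjusted p = 1.81e-05) and 151, 136 and 156 FPKM in wild type (-1.61 ± 0.14, adjusted p = 1.85e-07). Rpl15, a large subunit protein needed early in assembly, measured 67.7, 52.7 and 61.1 FPKM on day 30 in knockout, against 109.6, 116 and 135 FPKM on day 7. In wild type it measured 50.2, 49.8 and 53.0 FPKM on day 30, against 131, 132 and 152 FPKM on day 7. Its log2 change was -0.98 ± 0.13 in knockout (adjusted p = 3.21e-05) and -1.42 ± 0.13 in wild type (adjusted p = 3.76e-07). Rps26, Rps2, Rpl22 and Rps12 were also among the leading 8 in both genotypes, with log2 changes of -0.92 to -0.79 in knockout and -1.43 to -1.18 in wild type.

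**Figure D2:**
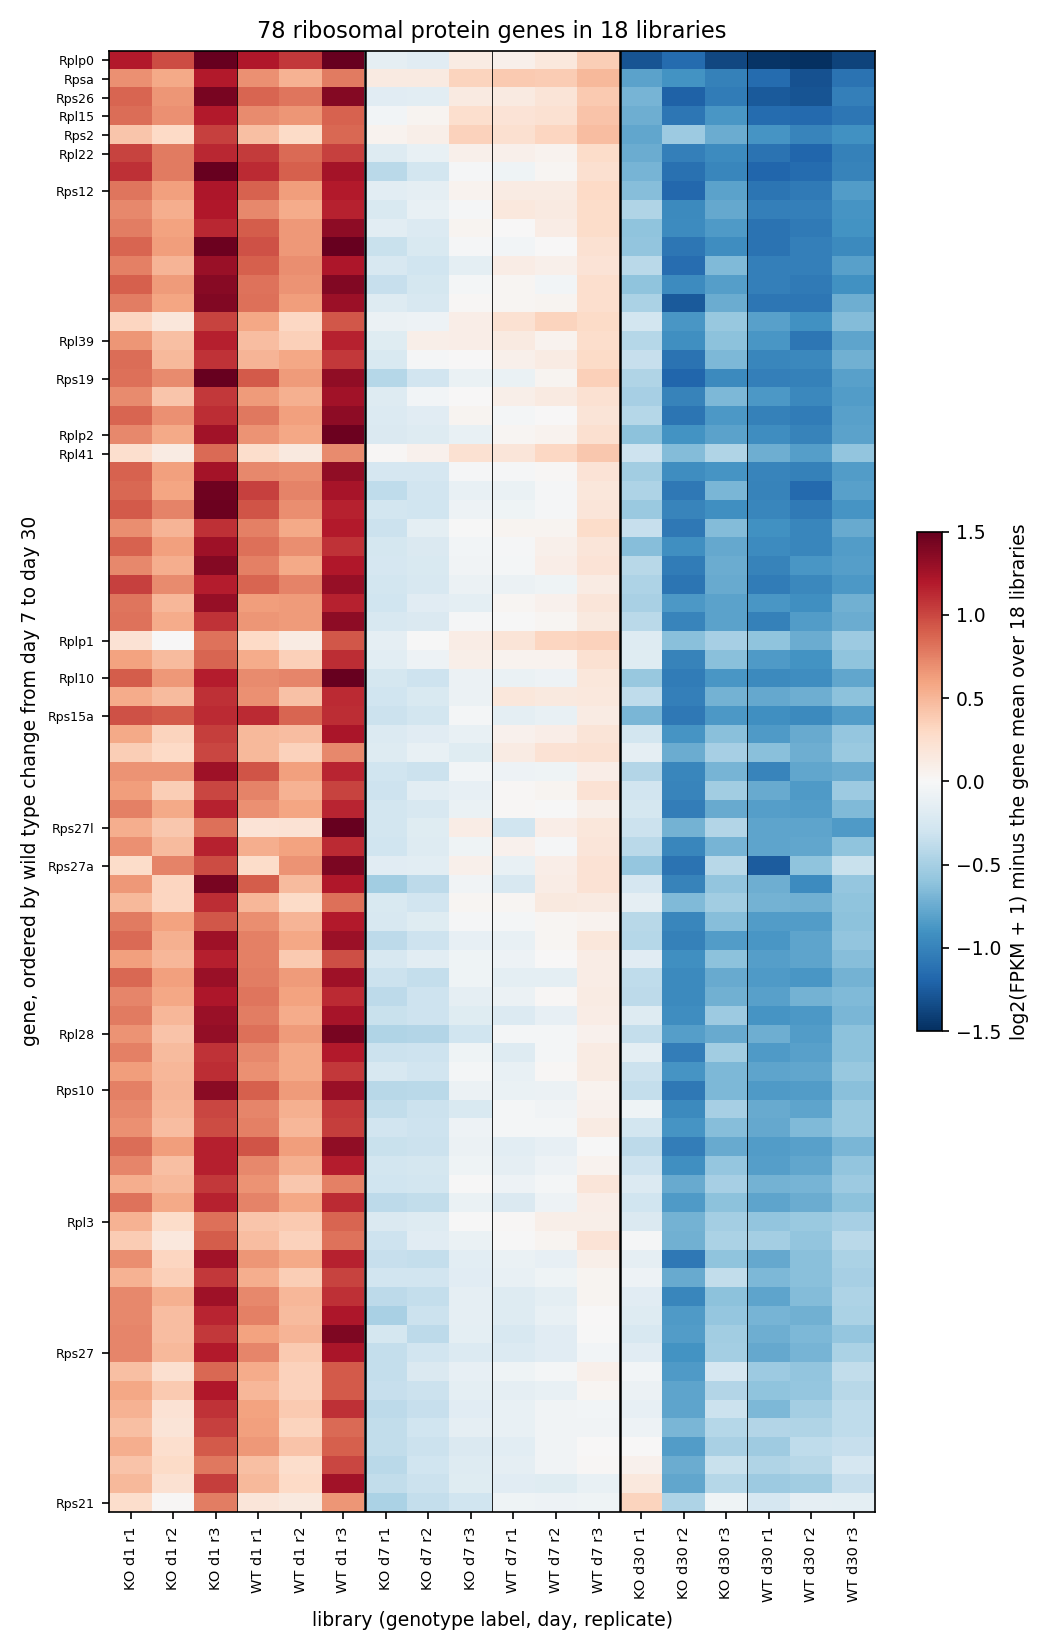
Level of the 78 tested members (rows, ordered by the wild type change from day 7 to day 30, with selected rows labelled) in the 18 libraries (columns, by day, knockout before wild type), as log2(FPKM + 1) minus the gene's mean over the libraries. Day 1 columns are red and day 30 columns blue for nearly all rows, and replicate 3 of both day 1 groups is the darkest red.

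Over the whole month Rplp0 fell furthest of the 78 members and Rps21 least, in both genotypes. The day 30 mean of Rplp0 was 0.170 of its day 1 mean in knockout and 0.141 in wild type, against medians over the members of 0.363 and 0.323. With wild type day 1 replicate 3 left out, Rplp0 remained the lowest in wild type with 0.165 and Rps21 the highest with 0.788, and the median was 0.374. Rps21, a small subunit protein, kept 0.749 of its day 1 mean in knockout and 0.693 in wild type. It measured 193, 164 and 275 FPKM on day 1, 115, 125 and 131 FPKM on day 7 and 203, 117 and 154 FPKM on day 30 in knockout. In wild type it measured 183, 179 and 256, then 154, 152 and 154, and then 135, 147 and 145 FPKM on the 3 days. Its knockout day 30 libraries overlapped with its day 7 libraries (log2 change 0.32 ± 0.20, adjusted p = 0.220), and it was the 1 member of 78 with a positive change there. Rplp1 and Rplp2, which pair with each other on Rplp0, kept more of their day 1 means, Rplp1 0.568 in knockout and 0.459 in wild type, and Rplp2 0.318 and 0.271.

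The fall was also timed differently among the members. In wild type libraries the median member had made 47.9% of its log2 fall by day 7, and in knockout libraries 68.8%. In wild type the share was 8.39% for Rpl41, 13.1% for Rpsa, 14.2% for Rps2, 18.2% for Rplp1, 24.5% for Rpl15 and 80.0% for Rps21. In knockout it was 37.0% for Rpl41, 36.6% for Rpsa, 34.5% for Rps2, 48.4% for Rplp1 and 45.8% for Rpl15. The wild type shares move with day 1 replicate 3. Without it the median was 41.7%, and Rpl41 and Rplp1 had higher means on day 7 than on day 1, with 1194 against 1118 FPKM and 1062 against 1007 FPKM. Rps2 then averaged 514 FPKM on day 7 and 524 FPKM on day 1. With or without that library, these 5 made most of their log2 fall after the first week in wild type, as they did in knockout. Across the 78 members, the log2 changes of the genotypes ran together, with r = 0.902 and rho = 0.877 for the first interval and r = 0.950 and rho = 0.918 for the second. For the first interval r was 0.934 without wild type day 1 replicate 3. Those values describe genes that share libraries and carry no p-value. Of the 78, 31 were called lower in all 4 age comparisons (both intervals in both genotypes), as were 782 of the 13347 genes (5.86%). The member count was 37 without wild type day 1 replicate 3, and the count over all genes was not computed for that fit.

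**Figure D3:**
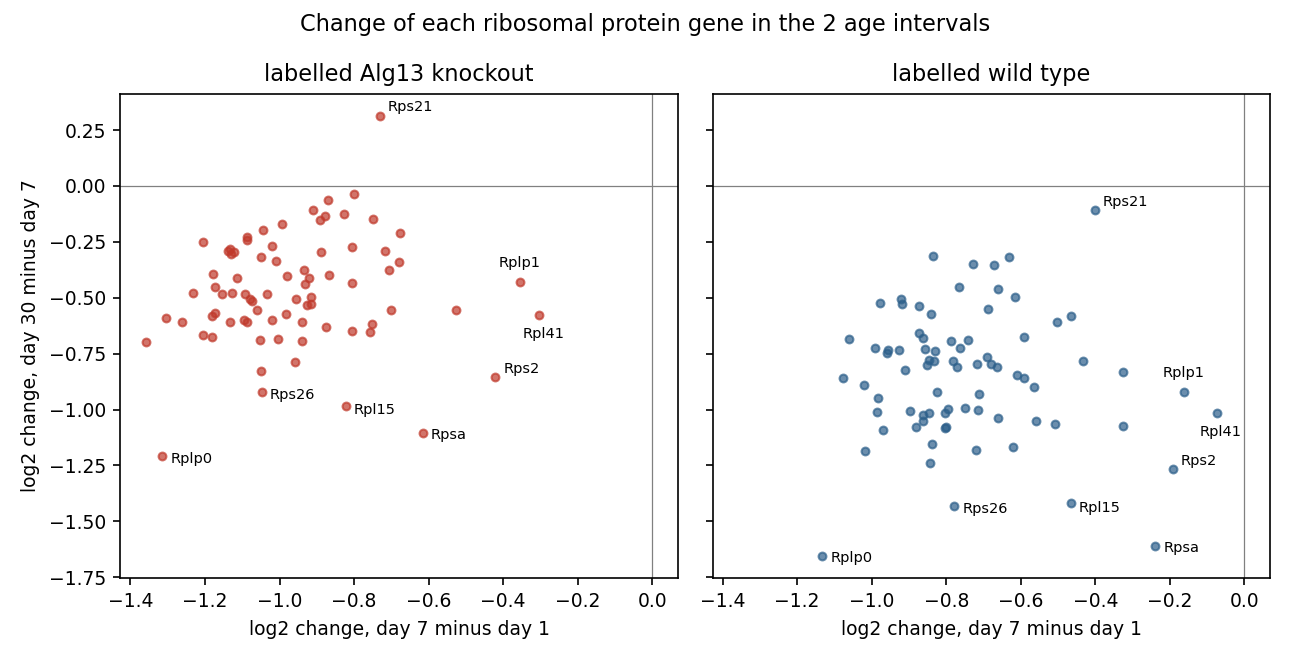
Log2 change of each of the 78 members from day 1 to day 7 (horizontal axis) and from day 7 to day 30 (vertical axis), with knockout on the left and wild type on the right. Points are genes; Rplp0 lies lowest in both panels, Rpl41 and Rplp1 lie furthest right, and Rps21 lies highest.

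Large and small subunit proteins changed by similar amounts. In wild type the median log2 change was -0.79 for the 44 large subunit members and -0.77 for the 31 small subunit members in the first interval, and -0.78 and -0.90 in the second. In knockout it was -0.97 and -1.02 in the first interval, and -0.42 and -0.53 in the second. The first wild type interval gave -0.61 and -0.58 without wild type day 1 replicate 3. The 4 X-linked members are Rpl10, near the site where amino acids are joined, Rps4x, Rpl36a and Rpl39, which lines the exit tunnel. All 4 were called lower in knockout in both intervals, and in wild type in the second; in the first wild type interval 3 were called and Rpl39 was not (log2 change -0.51 ± 0.21, adjusted p = 0.0518). Rpl36a also missed the threshold there without wild type day 1 replicate 3 (adjusted p = 0.0943). Members with a TOP start at the annotated position had medians close to those of the other matched members. In the second interval these were -0.39 (13 members) and -0.52 (44 members) in knockout, and -0.73 and -0.89 in wild type; the differences were not tested.

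The near-copies of members behaved differently from one another. Rps27l, a copy of Rps27 known as a target of p53, measured 7.29, 6.50 and 9.08 FPKM in knockout and 5.56, 5.58 and 23.4 FPKM in wild type on day 1. The high wild type value was that of replicate 3, the library with salivary gland and brown fat transcripts. By day 30 Rps27l stood at 3.54, 2.46 and 3.19 FPKM in knockout and 2.29, 2.28 and 2.14 FPKM in wild type. Rps27 itself measured 312, 189 and 246 FPKM in knockout and 206, 216 and 252 FPKM in wild type on day 30. Rpl39l, known from the testis, reached 2.06 FPKM in wild type day 1 replicate 3 and at most 0.277 FPKM in the other 17 libraries. Rpl3l, known from muscle, stayed at or below 0.230 FPKM in all 18, while Rpl3 lay between 247 and 743 FPKM.

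**Figure D4:**
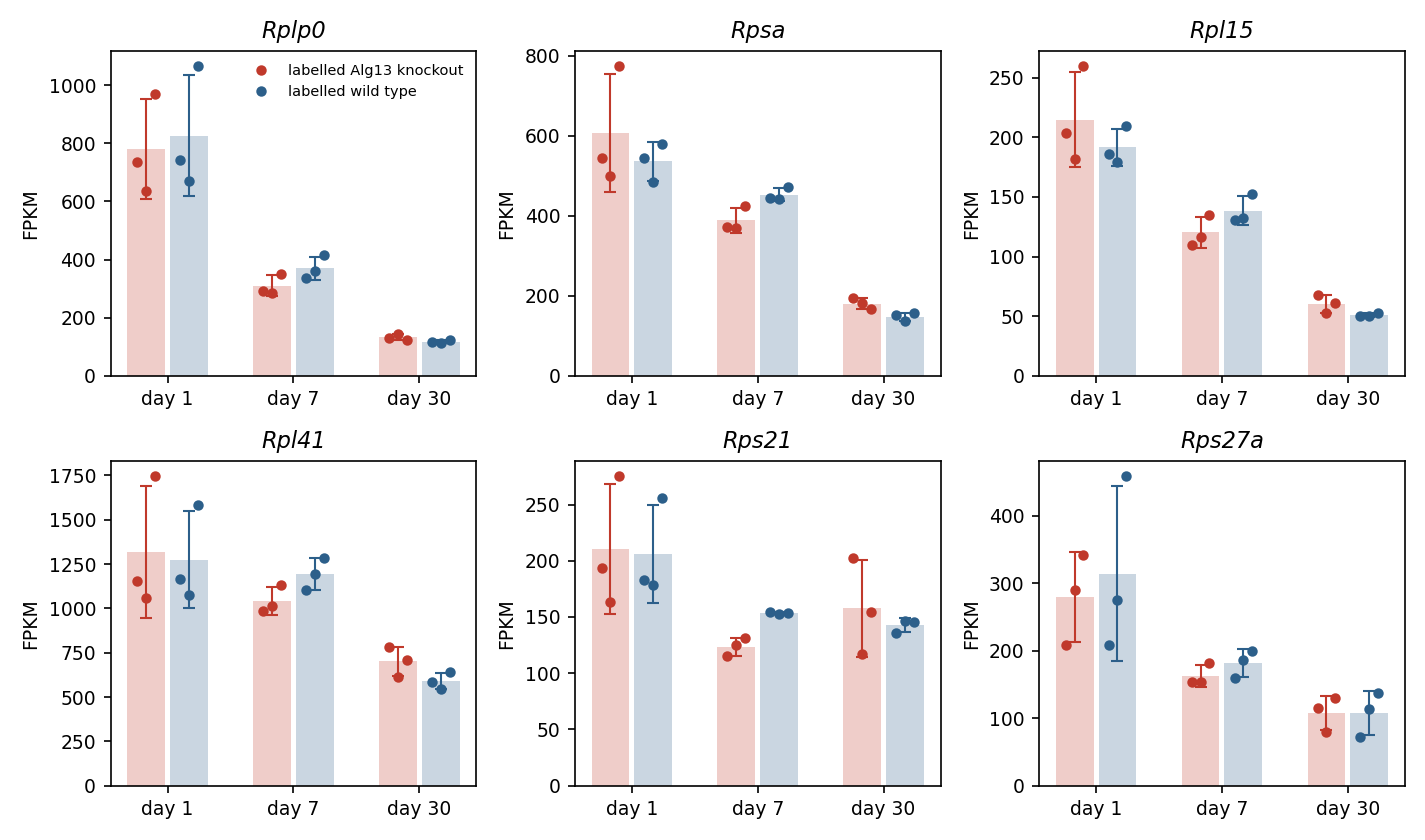
FPKM (vertical axis) of 6 members by postnatal day, with libraries labelled knockout left of those labelled wild type. Points are libraries, bars means and error bars SD (n = 3). Rplp0 falls in both intervals, and Rps27a varies widely on day 1. In wild type Rpsa, Rpl15 and Rpl41 fall mostly in the second interval, and Rps21 hardly falls after day 7. In knockout Rpl15 has means of 215, 120 and 60.5 FPKM on days 1, 7 and 30, and Rpsa of 607, 389 and 181 FPKM. The knockout mean of Rps21 is 124 FPKM on day 7 and 158 FPKM on day 30, with overlapping libraries.

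Knockout and wild type were compared on each day. On day 1, 0 of 78 members were called, where 69 genes were (0.517%). An unadjusted p under 0.05 was reached by 0 members and by 2901 of all genes tested. The median log2 difference of the members was -0.03, with 31 above 0 and 47 below, and that of all genes 0.02. The groups overlapped for all 78, while 8.92% of all genes lay wholly higher and 5.87% wholly lower in knockout. Without wild type day 1 replicate 3 the median was 0.16, and without knockout day 1 replicate 3 it was -0.20, so its sign rested on single libraries. The smallest p-values were those of Rpl15, with 203, 182 and 259.7 FPKM in knockout and 186, 179.6 and 209 FPKM in wild type (log2 difference 0.15 ± 0.13, adjusted p = 0.52), Rpsa (0.16 ± 0.14, adjusted p = 0.53) and Rpl10a (-0.14 ± 0.17, adjusted p = 0.66). Without knockout day 1 replicate 3 the Rpsa difference was -0.03, and without wild type day 1 replicate 3 that of Rpl10a was 0.05.

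On day 7 all 78 members had a lower mean in knockout, as did 7013 of the 13347 genes tested. None of the member differences passed the test. Members moved together from library to library, so the 78 are not separate observations. The differences ran from -0.40 to -0.10 with a median of -0.24, a fold of 0.847, and the median of all genes was -0.01. The 3 knockout libraries lay below the 3 wild type libraries for 42 of 78 members, as for 10.9% of all genes. At the threshold 0 of 78 were called (1 gene in all, 0.00749%). An unadjusted p under 0.05 was reached by 0 members and by 470 of all genes tested. In a fit to the day 7 libraries alone, 49 members had an unadjusted p under 0.05 and again 0 an adjusted one. The share of all genes with such an unadjusted p in that fit was not computed, so the 49 cannot be set against it. The smallest p-values were those of Rpl21, Rpl6l and Rpl28. Rpl28 measured 314, 318 and 349 FPKM in knockout and 424, 422 and 450.3 FPKM in wild type (log2 difference -0.40 ± 0.21, adjusted p = 0.999927 in limma, unadjusted p = 0.0773). Rpl21 measured 39.3, 41.5 and 39.5 FPKM in knockout and 49.2, 52.6 and 52.9 FPKM in wild type (-0.35 ± 0.17, unadjusted p = 0.0540). Neither gene showed an overlap. Leaving out 1 library at a time moved the median over the members between -0.30 and -0.18.

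Other values differed between the same day 7 libraries. The summed level of the 6 immature neuron markers was 2337 to 2914 FPKM in knockout and 3150 to 4205 FPKM in wild type. That of the 8 oligodendrocyte markers was 68.1 to 94.0 FPKM in knockout and 37.0 to 60.5 FPKM in wild type, and that of the 8 microglia markers 94.6 to 135 and 67.4 to 94.4 FPKM. The 8 astrocyte markers summed to 438 to 492 FPKM in knockout and 315 to 431 FPKM in wild type, and the 9 salivary gland markers to 4.82 to 6.38 and 15.0 to 16.97 FPKM. The mitochondrially encoded share was 12.8 to 14.1% in knockout and 11.3 to 12.1% in wild type. All markers of the immature neuron, oligodendrocyte, microglia and astrocyte lists were detected in both groups, while 6 of the 9 salivary gland markers (Bpifa2, Smgc, Prol1, Dcpp1, Dcpp2 and Dcpp3) were at 0 in knockout and none in wild type. The 10 markers of progenitors and dividing cells summed to 64.5 to 78.2 FPKM in knockout and 63.0 to 86.9 FPKM in wild type, and overlapped. What part these had in the difference of the ribosomal protein genes was not tested.

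On day 30, 75 of 78 members had a higher mean in knockout, as did 7376 of the 13347 genes tested. The median log2 difference of the members was 0.13, a fold of 1.10 (all genes 0.02). No member was called, where 3 genes were (0.0225%). An unadjusted p under 0.05 was reached by 0 members and by 479 of all genes tested. Knockout libraries lay wholly above wild type for 4 of 78, as for 9.35% of all genes, a smaller share than in the background. These were Rplp0, Rps2, Rps27l and Rpsa. Rpsa, with 193, 181 and 167 FPKM in knockout and 151, 136 and 156 FPKM in wild type, had the smallest p (log2 difference 0.29 ± 0.14, unadjusted p = 0.0601, adjusted p = 1). Rpl15 (0.23 ± 0.13) and Rpl22 (0.20 ± 0.12) followed. Without knockout day 30 replicate 1 the median over the members was -0.02, and without replicate 2 it was 0.28. Rpsa was also the 1 member whose libraries lay wholly lower in knockout on day 7 and wholly higher on day 30, as for 164 genes in all (1.23%). Its interaction p was 0.0556 before adjustment and 0.550 after. The oligodendrocyte markers summed to 1047 to 1080 FPKM in knockout and 682 to 995 FPKM in wild type on day 30, and the 76 nuclear-encoded respiratory chain subunits, a list added after the table was seen, all had a higher mean in knockout (median log2 difference 0.25, none called). Their part in these differences was not tested.

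**Figure D5:**
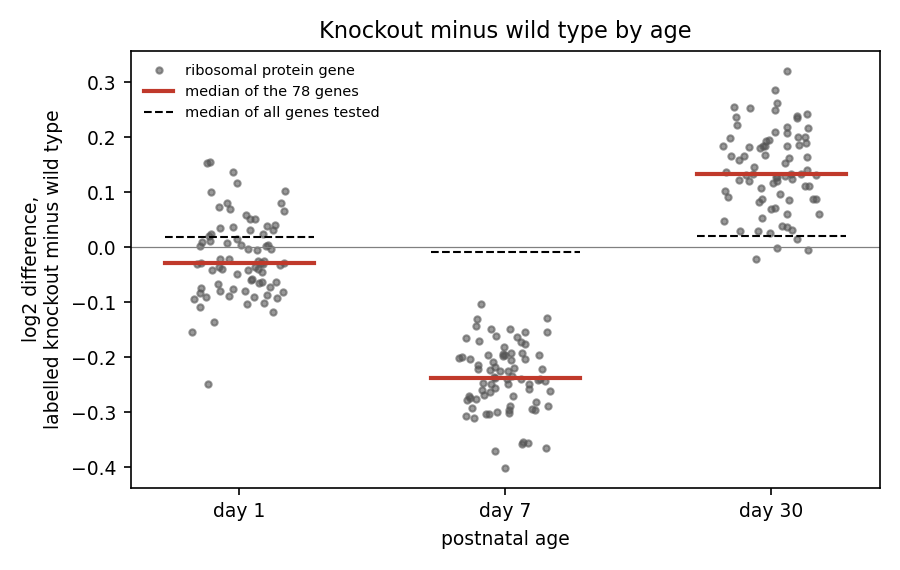
Log2 difference of each of the 78 members, knockout minus wild type, on days 1, 7 and 30 (vertical axis; points are genes, red bars their median, dashed bars the median of all genes tested). The members centre on -0.03, -0.24 and 0.13, and none passed the test on any day.

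Within a group the members moved as a block, library by library. In knockout day 1, replicate 3 was the highest of the 3 for 78 of 78 members and replicate 2 the lowest for 76. In wild type day 1, replicate 3 was the highest for 76 and replicate 2 the lowest for 72. The highest library was replicate 3 in knockout day 7 (77 members), wild type day 7 (72) and wild type day 30 (75), and replicate 1 in knockout day 30 (75). The median member of knockout day 1 replicate 3 lay 0.38 above its group mean on the log2 scale, that of knockout day 30 replicate 1 lay 0.30 above and that of wild type day 1 replicate 3 lay 0.35 above. The median of all genes in these libraries lay 0.01 above, 0.01 above and 0.05 below. Other gene lists leaned the same way. In these 3 libraries the median of the mitochondrial ribosomal proteins lay 0.24, 0.21 and 0.21 above the group mean, and that of 76 nuclear-encoded respiratory chain subunits 0.39, 0.21 and 0.63 above. Their part in the spread of the members was not tested. After the group means were removed, the correlation of a member with the median of the other members over the 18 libraries had a median of r = 0.960. It was lowest for Rps27a, which is made as a fusion with ubiquitin (0.645), Rps2 (0.699), Rps27l (0.727), Rplp0 (0.756) and Rpsa (0.803). These correlations describe genes that share each library's depth and total.

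Within groups, Rps27a followed the other members least closely. With the group means left in, its correlation with their median was 0.921, and the lowest was that of Rps21 (0.775). Rps27a measured 208, 289 and 341 FPKM in knockout and 208, 276 and 459 FPKM in wild type on day 1. On day 30 it measured 115, 79.2 and 129 FPKM in knockout and 72.0, 113 and 137 FPKM in wild type. On day 1 its lowest library was replicate 1 in both genotypes, where replicate 2 was lowest for most members. It was called lower in the first interval in both genotypes (adjusted p = 0.034 in knockout and 0.042 in wild type, or 0.188 in wild type without day 1 replicate 3), and in the second in wild type (adjusted p = 0.025) but not in knockout (adjusted p = 0.092).

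A list of 7 ribosomal proteins or close relatives with symbols outside the rule included Fau, Rps3a1, Rpl36al, Rpl22l1, Rpl7l1 and Rack1. Of these 7, 5 were called lower from day 1 to day 7 in knockout and 5 in wild type, and 1 and 6 from day 7 to day 30. Rack1, a scaffold on the small subunit, fell in all 4 comparisons. On day 30 against day 7 it averaged 105 against 188 FPKM in knockout and 94.3 against 220.2 FPKM in wild type (log2 changes -0.84 and -1.21). Rpl22l1, a copy of Rpl22, was not called in the first week (log2 change 0.35 in knockout and 0.31 in wild type), where Rpl22 fell by 1.05 and 0.84. Rpl22l1 was called higher in wild type without day 1 replicate 3 (0.68 ± 0.20, adjusted p = 0.00861). Between genotypes none of the 7 was called on any day.

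The rest of the translation machinery was counted from lists, beside which 29.4, 28, 22 and 29.6% of all genes were called lower, and 19.3, 20.9, 15.9 and 20.8% higher, in knockout day 7 against day 1, wild type day 7 against day 1, knockout day 30 against day 7 and wild type day 30 against day 7. Of 30 initiation factors, which load the ribosome on messenger RNA, 20, 16, 18 and 26 were called lower in these comparisons and 1, 1, 0 and 0 higher. Eif4a1, the helicase that opens the start of messages, averaged 103 FPKM on day 30 and 283 FPKM on day 7 in wild type (log2 change -1.44 ± 0.11, adjusted p = 2.7e-08). Of 8 elongation factors, 5, 4, 6 and 6 fell and 2, 2, 1 and 2 rose. Eef1a1, which brings transfer RNA to the ribosome, averaged 1078 FPKM on day 30 and 2746 FPKM on day 7 in wild type (-1.35 ± 0.14, adjusted p = 1.1e-06). Its counterpart Eef1a2, the form of mature neurons and muscle, rose in all 4 comparisons and in wild type averaged 74.5 FPKM on day 7 and 21.8 FPKM on day 1 (1.73 ± 0.18, adjusted p = 1.6e-06).

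Of 6 other genes whose messages are known to carry TOP starts, 6, 6, 5 and 6 fell and none rose. Among them were Hnrnpa1, an RNA-binding protein (wild type log2 change from day 7 to day 30 -1.56 ± 0.13, adjusted p = 9.4e-08), and Npm1, a nucleolar chaperone (-1.05 ± 0.14, adjusted p = 2.1e-05). Of 29 ribosome biogenesis factors 19, 18, 13 and 18 fell and 1, 2, 0 and 0 rose. Fbl, which methylates ribosomal RNA, averaged 13.9 FPKM on day 30 and 39.7 FPKM on day 7 in wild type (-1.45 ± 0.13, adjusted p = 2.9e-07). Of 14 growth regulators of ribosomal protein synthesis 6, 7, 4 and 5 fell and 1, 1, 0 and 1 rose, which in the second interval is near the shares of all genes. Myc, a transcription factor of growing cells, averaged 1.24 FPKM on day 30 and 6.58 FPKM on day 7 in knockout, and 1.01 and 8.98 FPKM in wild type (log2 changes -1.76 and -2.30). Without wild type day 1 replicate 3, the first wild type interval gave 16 initiation factors, 4 elongation factors, 6 other TOP genes, 20 biogenesis factors and 7 growth regulators called lower. Of all genes 30.6% were called lower in that fit. None of the genes in these lists was called between genotypes on any day. On day 7 the median log2 difference, knockout minus wild type, was -0.13 for initiation factors, -0.22 for elongation factors, -0.18 for the other TOP genes and -0.08 for biogenesis factors.

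The ribosomal proteins of mitochondria, encoded by 78 tested nuclear genes, changed less. From day 1 to day 7, 17 fell and 0 rose in knockout, and 10 fell and 4 rose in wild type (7 and 12 without wild type day 1 replicate 3). From day 7 to day 30, 4 fell and 4 rose in knockout, and 28 fell and 3 rose in wild type. Their median log2 changes in these comparisons were -0.19, 0.01, -0.04 and -0.26, against -0.99, -0.78, -0.48 and -0.82 for the cytosolic members. Transcript length was also looked at, because 63 of the 77 members with a length measured 1000 bases or less. The 2014 other coding genes of that length had median log2 changes of -0.13, -0.08, -0.00 and -0.13 in the same comparisons, and their knockout minus wild type medians were 0.06, -0.05 and 0.08 on days 1, 7 and 30. On these days 1157, 740 and 1370 of them lay higher in knockout and 857, 1274 and 641 lower. Within groups, their median lay 0.14 above the group mean in knockout day 1 replicate 3. It lay 0.11 above in knockout day 30 replicate 1 and 0.07 above in wild type day 1 replicate 3. The part of transcript length in the changes of the members was not tested.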

How the data were processed

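RNA from cerebral cortex was sequenced in 18 libraries. The deposited table gives FPKM per gene and library, computed by the authors, in 1 column per library. Bowtie2, RSEM 1.3.1, DESeq2 1.4.5 and the build GRCm39 are listed in the submitters' processing notes. No source used here gives the annotation release, filters or strand use. The table holds no read counts, so depth is unknown and limits how low levels can be read.

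From the FPKM values, log2(FPKM + 1) was computed for the 13347 genes that reached 1 FPKM in 3 or more of the 18 libraries. This scale understates the change of low genes. A model of 6 group means with a mean-variance trend was fitted by limma 3.58.1 (R 4.3.3). Tests were two-sided, with p-values adjusted by Benjamini-Hochberg over all genes and a threshold of 0.05. The script was tested on simulated data. With 3 libraries against 3, an exact permutation test cannot go below 0.1. FPKM means and folds of means are on the linear scale. Sequences are RefSeq's (GRCm38.p6).

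Members and lists were chosen with earlier results of these data known. Named members are, per comparison, the 8 largest called rises and falls without overlap (or the 3 smallest p), the 3 highest and 3 lowest by mean, near-copies and X-linked members. From the other lists, up to 3 called genes with the largest change were eligible. Rps21, Rps27a, Rpl41 and Rplp1 were described further after their values were seen. Rpl10l and Rps4l were not analysed here, and some genes that meet the naming rule are not reported here.

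Replicate numbers are shared by the groups. Deviations of same-numbered libraries correlated at 0.333, 0.337 and 0.53 between knockout and wild type on day 7. Between knockout days 7 and 1 they correlated at 0.143, 0.233 and 0.289. These comparisons met the rule that each value exceeds 0.1, and other comparisons did not meet it. Libraries with unlike numbers reached 0.393 for knockout day 7 replicate 2 against wild type, where the same number gave 0.337. For knockout day 7 replicate 1 against day 1 they reached 0.334, where the same number gave 0.143. The numbers therefore do not establish that the libraries were paired.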

Additional observations from a re-analysis of the deposited data

How the results depend on the processing

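Alternatives were another pseudocount, no filter on low values, median-ratio and quantile scaling, scaling to the total outside the members, no variance trend, Ddx3y as a covariate, a fit to the compared groups only, a replicate block, and leaving out each library. The wild type lists, folds and timing without day 1 replicate 3 were added after seeing the data. Of 131 counts of members called, 125 stayed within 1.5 times their value. The 6 others were all of knockout day 30 against day 7 (36 in the main fit), which called 21 with no filter, 59 when scaled to the total outside the members, and 13 to 50 when 1 library was left out. Leaving out 1 library gave 72 to 74 members for knockout day 7 against day 1, 59 to 70 for wild type day 7 against day 1, 60 to 66 for wild type day 30 against day 7, and 0 throughout for knockout against wild type and the interaction. The cause of these shifts was not tested. For most of these fits of the age comparisons the share of all genes called is not reported here, so the member counts have no background beside them. Over all genes, knockout against wild type on day 1 called 69 genes, 987 with Ddx3y as a covariate and 0 in a fit to the compared groups only.

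With the replicate number as a block, the counts were 75, 71, 48 and 73 for the 4 age comparisons (knockout and wild type day 7 against day 1, then knockout and wild type day 30 against day 7) and 0 for each genotype comparison and the interaction. The block moved no count by over 1.5 times. The shares of all genes called with the block or with quantile scaling are not reported here, so higher member counts cannot be set against them. Quantile scaling gave 51 lower and 1 higher in knockout day 30 against day 7. It made the median of knockout day 7 against day 1 -0.73 and that of knockout against wild type on day 30 0.03. The member medians of days 7 and 30 kept their sign under all scalings tried. FPKM are relative to the library total, so a change shared by all RNA of a cell cannot be seen.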
